A study of Mus musculus with 6 samples.

Results

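The imprinted growth network genes considered here are H19, Meg3, Dlk1, Peg3, Plagl1, Mest, Grb10, Ndn, Zim1 and Sgce. They were chosen by name as imprinted genes of the embryonic growth network and found by their gene identifiers, and all 10 were present among the 55335 genes of the deposited count table. The study compared wild-type (WT) MEFs, cultured fibroblasts of the mouse embryo, that had crossed 3 μm transwell pores and were collected after 15 h (Confine) with the parental MEFs (Ctrl). Both groups are labelled as the same cell line in the same medium, and embryo age and strain were not given in the sources used here. No transwell is named for Ctrl, so pore passage, selection of the cells that crossed and culture on the membrane cannot be told apart. The paper's transwell method, written for inserts of another pore size, seeded cells without serum above medium that held serum. Whether the Confine cells were treated in this way was not stated, and an effect of serum cannot be told apart either. Each group has 3 deposited columns of raw read counts, but the columns of Confine replicates 1 and 2 are identical over all genes and were used once, under the number 1, which leaves 3 Ctrl and 2 Confine libraries. The question was which of these genes were transcribed in the fibroblasts and whether their mRNA level differed after passage through the pores.

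Imprinted genes are expressed mainly from the copy inherited from a single parent, a state set by DNA methylation that is laid down in the germ line. The mouse genes tend to lie in domains that hold maternally and paternally expressed neighbours under shared control. H19, Meg3, Zim1 and, outside the brain, Grb10 are expressed from the maternal copy, whereas Dlk1, Peg3, Plagl1, Mest, Ndn and Sgce are expressed from the paternal copy. Many of them are high in the embryo and placenta, act on growth, and are turned down after birth. The counts do not separate the parental copies, so every level below is the sum over both.

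H19 was the only member whose level passed the test of the difference between Confine and Ctrl in the 5 libraries as analysed, and it rose 12.2-fold. Grb10 and Sgce were well expressed in both groups. Mest and Plagl1 were present at a few reads per library with fewer in Confine, and Ndn had between 0 and 6 reads. Meg3, Dlk1, Peg3 and Zim1 had no read in any library. The members thus divided into 3 genes with a clear signal, 3 near the limit of detection and 4 at 0.

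The libraries held between 22287210 and 32537550 counts. Levels are given as normalized CPM, the counts scaled to library size after TMM normalization, and, where genes are compared with each other, as normalized RPKM, which divides this by the exon length in kilobases. A total of 3 counts, the limit that a count of 0 allows, corresponds to between 0.101 and 0.128 normalized CPM, and this limit covers counting error only. Of the 14 fibroblast markers, 11 passed the filter on low counts, Col1a1 (a chain of type I collagen) had 2353 normalized CPM on average in Ctrl and 3709 in Confine, and Thy1, Lum and Dcn had at most 27 counts in any library. Differences were tested in edgeR with its quasi-likelihood model over the 15881 genes that passed its filter, and p-values were adjusted over all of them by the Benjamini-Hochberg procedure. An adjusted p under 0.05 passed the test, and a gene that also had a log2 fold change above 1.5 in size was called differentially expressed. The labels do not say that the libraries came from separate cultures, so the p-values measure the spread between these libraries, which may be technical. The edgeR model also draws the spread of each gene toward that of all tested genes. Its p-values and intervals therefore rest in large part on other genes.

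Some of the members are also host genes of microRNAs, small RNAs that pair with mRNAs mainly through the seed at bases 2 to 8. RefSeq (GRCm38.p6) places 3 hairpins on the strand of a member and within it, namely Mir675 in H19, Mir770 in Meg3 and Mir335 in Mest. The Mir675 hairpin lies wholly in an H19 exon, and its sequence is contained in 3 of the 7 annotated H19 transcripts. Mir770 lies in an exon of 1 of 11 Meg3 transcripts, and Mir335 lies in an intron of Mest. The GENCODE M21 annotation also places Mir1906-1 on the strand of Meg3, with 80 shared exon bases, and its sequence is not shown. The mature sequences of the 3 RefSeq hairpins are given below, with the seed in capitals. They are shown because the host transcripts carry them besides their own RNA, and all 6 seeds are different.
mmu-miR-675-5p (H19): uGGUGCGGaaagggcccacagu
mmu-miR-675-3p (H19): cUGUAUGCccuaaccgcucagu
mmu-miR-770-5p (Meg3): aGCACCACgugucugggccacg
mmu-miR-770-3p (Meg3): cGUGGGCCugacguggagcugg
mmu-miR-335-5p (Mest): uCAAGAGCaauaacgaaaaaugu
mmu-miR-335-3p (Mest): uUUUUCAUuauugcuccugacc
The miR-675 arms occupy positions 142577112 to 142577133 and 142577078 to 142577099 on the minus strand of chromosome 7. The libraries were made from polyadenylated RNA cut to long fragments, so they report the host transcripts and not the mature microRNAs, and the separate Mir675 and Mir770 gene entries had 0 counts in every library.

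H19 is a long noncoding RNA at chr7:142575529-142578143 (GRCm38, minus strand). It is abundant in embryonic tissue and lies downstream of Igf2, with which it shares enhancers. Ctrl gave 105, 38 and 54 H19 counts, and Confine gave 563 and 1039. As normalized CPM, Ctrl had 3.63, 1.44 and 2.30, and Confine had 19.02 and 41.3, or 2.45 ± 1.10 (SD, n = 3) against 30.1 ± 15.7 (SD, n = 2). The groups did not overlap, and Confine replicate 3 had more H19 than Confine replicate 1. In log2 terms H19 rose by 3.61 (SE 0.33, 95% interval 2.90 to 4.31, edgeR adjusted p = 3.15e-07). DESeq2 gave a log2 fold change of 3.60 with a larger SE of 0.62 (adjusted p = 1.19e-07). By the edgeR fit H19 ranked 122 of the 15881 tested genes, counted from the largest increase. The exact two-sided permutation test on log2(CPM + 1) gave p = 0.1, the smallest value that 3 libraries against 2 allow. Without Confine replicate 3 the log2 fold change was 2.94, and without Confine replicate 1 it was 4.06, so its size depended on which Confine library was used while edgeR's adjusted p stayed at or below 4.36e-05 when any library was left out.

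**Figure D1:**
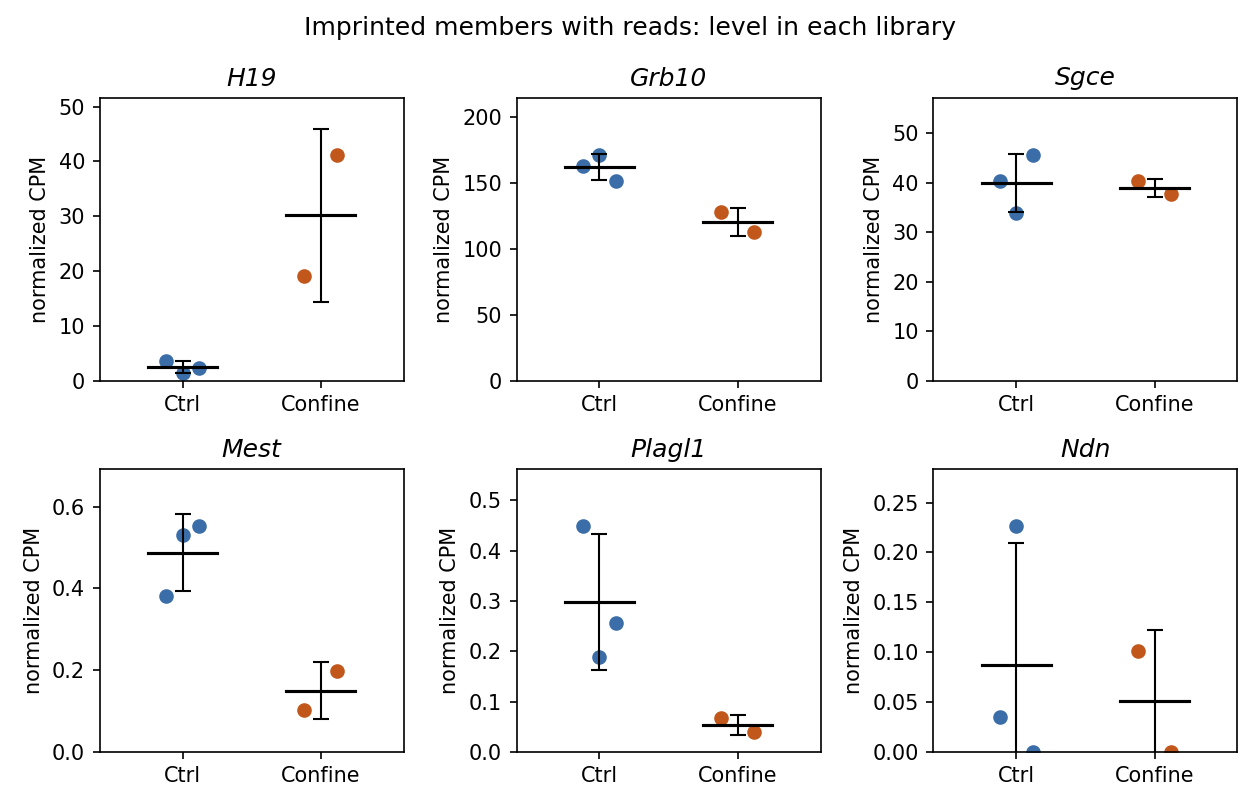
Normalized CPM of the 6 members with reads in each library, on linear axes that start at 0 and differ between panels. Points are libraries (3 Ctrl in blue, 2 Confine in orange), the bar is the mean and the whiskers are the SD. H19 had 1.44 to 3.63 in Ctrl and 19.02 to 41.3 in Confine, whereas the groups of Sgce overlapped.

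Of the H19 exon bases, 96.6% are shared with no other gene on the same strand, and the rest belongs to Mir675. On the opposite strand lie Gm27483 and Gm27786, so that 90.9% are shared with no gene on either strand. All 3 of these entries had 0 counts. A read within the bases shared with Mir675 fits both entries and could have been left uncounted. The same holds for the opposite strand if counting ignored the strand. These 0 counts thus do not show that no read fell there. Igf2, the paternally expressed growth factor of the same domain, had 0 counts in all 5 libraries, and so did Ins2. Only 37.2% of the Igf2 exon bases are free of another gene on the same strand, since the rest is also annotated as Gm49394, which had 0 counts as well. A read that fits both entries could have been left uncounted, so for Igf2 the limit of 3 counts, 0.0223 normalized RPKM or less, applies only to reads that were assigned. Th, the next gene of the domain, which encodes the first enzyme of catecholamine synthesis, had 8 counts in Confine replicate 3 and 0 elsewhere and was not tested.

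Grb10 encodes an adaptor protein that binds the insulin and IGF1 receptors and restrains their signal. It is found at chr11:11930508-12038683 (minus strand). Ctrl gave 4710, 4537 and 3565 Grb10 counts, and Confine gave 3780 and 2848. As normalized CPM it had 163, 171 and 152 in Ctrl and 128 and 113 in Confine, so that both Confine libraries lay below every Ctrl library. Its log2 difference was -0.43 (SE 0.18, 95% interval -0.80 to -0.053, edgeR unadjusted p = 0.0275 and adjusted p = 0.0953), which did not pass. Scaled by library size without TMM, it was -0.64 (edgeR adjusted p = 0.0123) and passed, at a setting that moved the median of all tested genes by -0.21.

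Sgce encodes epsilon-sarcoglycan, a membrane glycoprotein, at chr6:4674350-4747207 (minus strand). It had 40.3, 33.9 and 45.7 normalized CPM in Ctrl and 40.3 and 37.6 in Confine. The Confine values fell within the range of the Ctrl values. Its log2 difference was -0.036 (SE 0.19, 95% interval -0.43 to 0.36, edgeR adjusted p = 0.919), an interval that leaves room for changes of either sign. No other gene shares exon bases with Sgce or with Grb10.

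Mest encodes a membrane enzyme of the hydrolase family and is known for its high level in embryonic mesoderm. It is found at chr6:30723547-30748465 (plus strand). Ctrl gave 11, 14 and 13 Mest counts, and Confine gave 3 and 5, which is 0.487 ± 0.0937 normalized CPM (SD, n = 3) against 0.150 ± 0.0687 (SD, n = 2). The groups did not overlap. Its log2 difference was -1.69 (SE 0.72, 95% interval -3.20 to -0.17, edgeR unadjusted p = 0.0312 and adjusted p = 0.104), and it did not pass. Mest got through the filter by its Ctrl counts alone. Copg2, a coat protein gene of the Golgi that runs on the opposite strand, shares 912 exon bases with Mest and had 630 to 906 counts per library, and whether counting used the strand was not stated.

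Plagl1 encodes a zinc finger transcription factor that binds GC-rich DNA, slows cell division, and is known to control other imprinted genes of this network. It is found at chr10:13060504-13131694 (plus strand). It had 13, 5 and 6 counts in Ctrl and 2 and 1 in Confine, too few for the filter. Both Confine libraries were below the Ctrl libraries, at 0.0676 and 0.0397 normalized CPM against 0.189 to 0.449. Fitted without a filter, its log2 fold change was -2.38 (SE 1.15, edgeR adjusted p = 0.177), which did not pass. Ndn encodes necdin, a growth suppressor of postmitotic neurons, on the plus strand of chromosome 7, from 62346569 to 62350262. It had 1, 6 and 0 counts in Ctrl and 3 and 0 in Confine, so no difference was detectable at this depth.

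Dlk1, Meg3, Peg3 and Zim1 had 0 counts in each of the 5 libraries. Dlk1 encodes a membrane protein with EGF-like repeats that keeps progenitor cells undifferentiated, and Meg3 is a maternally expressed long noncoding RNA of the same domain on chromosome 12 (Dlk1 from 109452823 to 109463336 and Meg3 from 109541001 to 109571726, both on the plus strand). Peg3 and Zim1 encode zinc finger proteins and lie next to each other on the minus strand, Peg3 at chr7:6703892-6730431 and Zim1 at chr7:6671269-6696450. A library with 0 counts allows at most 0.00705 normalized RPKM for Meg3, 0.0226 for Dlk1, 0.00958 for Peg3 and 0.0158 for Zim1, taking the shallowest library. No other gene shares exon bases with Dlk1, Peg3 or Zim1, and 98.5% of the Meg3 exon bases are free of other genes. Of the 8 members that encode proteins, 3 were at 0 in all libraries, against 28.4% of the 21899 protein-coding genes in the table.

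Per kilobase of exon, the order in Ctrl was Grb10 with 17.8 normalized RPKM, Sgce with 3.77, H19 with 0.997 and Mest with 0.124, and the libraries of neighbours in this order did not overlap. Plagl1 followed with 0.0381 and Ndn with 0.0236, and these overlapped. In Confine, Grb10 had 13.2 and H19 12.3 normalized RPKM, with overlapping libraries, and Sgce followed with 3.67. H19 thus moved from below Sgce in every Ctrl library to above it in both Confine libraries.

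**Figure D2:**
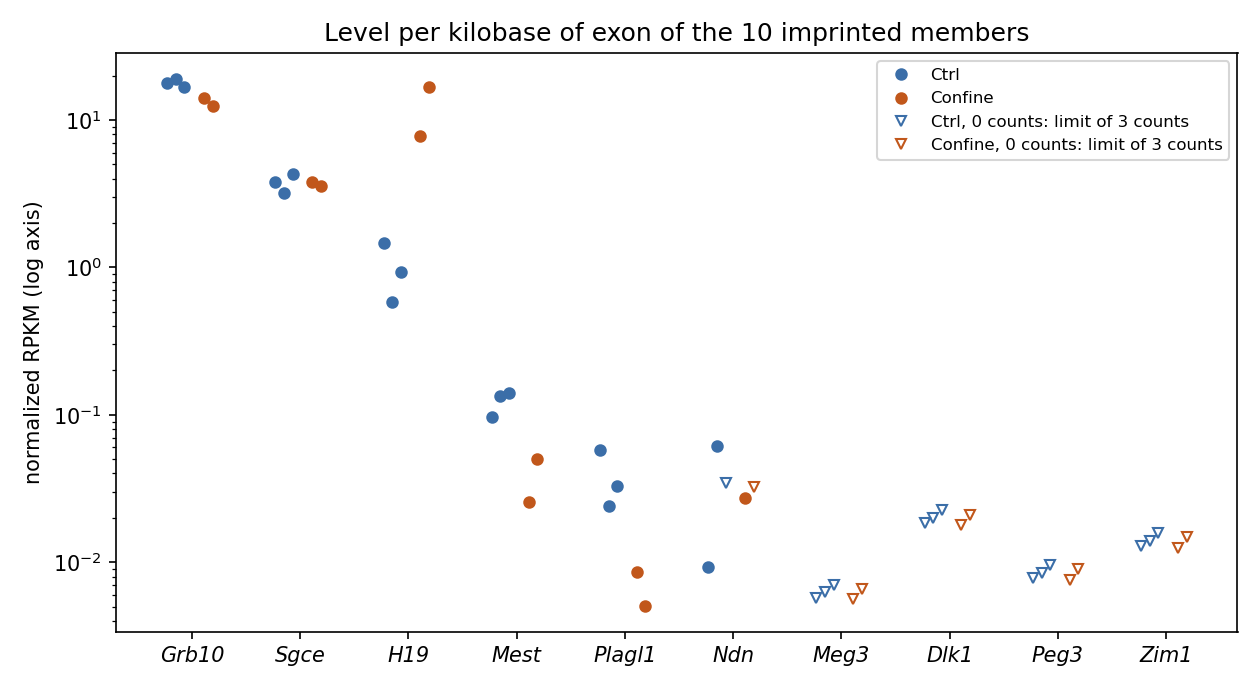
Normalized RPKM of the 10 members on a log axis, in the order of their Ctrl means. Filled points are libraries with reads (Ctrl in blue, Confine in orange) and open triangles are libraries with 0 counts, drawn at the limit of 3 counts. H19 is the member whose Confine points (7.73 and 16.8) stand far above its Ctrl points (0.584 to 1.47), and Meg3, Dlk1, Peg3 and Zim1 have only triangles.

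Counted over the members, 1 of the 4 tested passed the test with a higher level in Confine and 0 with a lower level, by edgeR. Over all tested genes 23% passed, 12.8% with a higher and 10.2% with a lower level. The same member was called differentially expressed with the cutoff on the fold change, against 8% of all tested genes, of which 4.89% were higher and 3.11% lower. Over the 4 tested members the median log2 difference was -0.23, beside -0.0021 for all tested genes. A share of 1 in 4 lies near the background, so the result concerns H19 and not the members as a group. The groups did not overlap for H19, Grb10 and Mest among the tested members, and this was so for 49.5% of all tested genes.

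The promoters of the members were compared for base composition. The RefSeq promoter table (GRCm38.p6, 250 bases before to 50 after each start) holds 12 windows for 8 members, and H19 and Sgce are not among them. Of these 12 windows, 11 held more CpG dinucleotides, the sites of DNA methylation, than the median of 7 over 32851 promoter windows. The windows are not all separate promoters, since the Mest windows chr6:30737800-30738099 and chr6:30737803-30738102 overlap and have 17 CpG each. The remaining Mest window, with 8, and the Dlk1 window, with 9, lie near the median. The CpG numbers ran from 1 in the second Meg3 window to 45 in the upstream Grb10 window, which had more CpG than 98.1% of all windows. The upstream Grb10 window and the Dlk1 window are shown, with CpG in capitals. Grb10 is the highest member and Dlk1 is a member without reads. Other members without reads had more CpG than Dlk1, namely Zim1 with 20 and Peg3 and the first Meg3 window with 13 each. Plagl1, near the limit of detection, had 26. The upstream Grb10 window is chr11:12037371-12037670 on the minus strand and the Dlk1 window, with 9 CpG, is chr12:109452573-109452872 on the plus strand. The other Grb10 window, chr11:12027922-12028221 on the minus strand, is not shown and also has 9 CpG. A relation of CpG number to expression was not tested.
Grb10 promoter: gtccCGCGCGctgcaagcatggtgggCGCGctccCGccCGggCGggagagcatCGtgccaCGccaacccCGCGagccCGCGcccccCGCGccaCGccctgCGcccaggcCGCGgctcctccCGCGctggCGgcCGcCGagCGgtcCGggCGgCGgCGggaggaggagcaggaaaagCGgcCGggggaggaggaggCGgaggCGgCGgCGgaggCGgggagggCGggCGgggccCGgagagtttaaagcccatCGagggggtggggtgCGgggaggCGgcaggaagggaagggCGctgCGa
Dlk1 promoter: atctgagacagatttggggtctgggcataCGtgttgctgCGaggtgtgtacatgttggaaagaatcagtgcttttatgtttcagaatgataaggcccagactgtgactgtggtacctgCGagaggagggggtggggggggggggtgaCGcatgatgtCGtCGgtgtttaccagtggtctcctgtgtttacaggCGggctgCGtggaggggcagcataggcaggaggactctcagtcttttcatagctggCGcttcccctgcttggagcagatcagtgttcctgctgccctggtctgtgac
Because Plagl1 is a known regulator of the network, the letters GGGGCCCC, a GC-rich palindrome that it can bind, were searched on both strands. They occurred in 1 of the 12 member windows, that of Peg3, and in 1.08% of all windows. The Peg3 window is chr7:6730370-6730669 on the minus strand, and the match is in capitals.
Peg3 promoter: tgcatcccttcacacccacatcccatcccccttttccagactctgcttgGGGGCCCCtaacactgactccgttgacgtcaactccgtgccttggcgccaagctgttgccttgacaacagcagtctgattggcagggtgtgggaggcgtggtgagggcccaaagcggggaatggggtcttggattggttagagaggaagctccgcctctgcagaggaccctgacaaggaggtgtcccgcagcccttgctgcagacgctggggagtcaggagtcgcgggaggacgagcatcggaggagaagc
The letters GCCATNTT, bound by Yy1, a factor known from the Peg3 domain, were in 0 of the member windows and in 6.05% of all windows. The Peg3 window with the match belongs to a gene without reads, and these matches are descriptions of letters.

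The other genes of the same domains were read from a list of 31 genes. Of these, 30 matched a gene in the table, 13 had no count in any library and 13 were tested. Among the matched genes the Plagl1 domain held Plagl1 alone. In this list 4 genes fell and 0 rose by edgeR's quasi-likelihood test, against 10.2% of all tested genes that fell. Of these 4, Peg10 alone kept its call without Ctrl replicate 1, without Confine replicate 1 or without Confine replicate 3, in fits where 17.8%, 13.5% and 12.4% of all tested genes passed. The median log2 fold change of the 13 was -0.52. All 4 lie in the Dlk1/Meg3 domain, with 2 tested genes, and the Sgce/Peg10 domain, with 6 tested genes including Sgce. In the H19/Igf2, Peg3 and Plagl1 domains no gene besides the members was tested.

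The Peg3 domain had no read at all. Usp29, Zim2, Zim3 and Zfp264 were at 0 in all 5 libraries along with Peg3 and Zim1, which makes 6 of 6 listed genes. In the Dlk1/Meg3 domain Rian was also at 0, and Rtl1 had 2 counts in a single Ctrl library. Mirg, a host transcript of many microRNAs downstream of Meg3, had 7 to 10 counts in Ctrl and 5 and 16 in Confine and did not pass (log2 fold change 0.31, edgeR adjusted p = 0.80). Dio3, at the far end of the domain, encodes the deiodinase that inactivates thyroid hormone. It had 21, 16 and 6 counts in Ctrl and 1 and 2 in Confine, and fell with a log2 fold change of -3.17 (SE 0.89, edgeR adjusted p = 0.0143). Like Mest, Dio3 got through the filter by its Ctrl counts alone. With only 1 Confine library the value was -2.67 (without Confine replicate 1, edgeR adjusted p = 0.165) or -3.81 (without Confine replicate 3, edgeR adjusted p = 0.0830), and the call was lost. Without Ctrl replicate 1 or without Ctrl replicate 2, Dio3 was below the filter.

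Peg10, a retrotransposon-derived gene needed in the placenta, starts next to Sgce and runs in the other direction. It had 175, 107 and 94 counts in Ctrl and 31 and 36 in Confine, or 4.70 ± 1.17 normalized CPM (SD, n = 3) against 1.24 ± 0.270 (SD, n = 2). It fell by 1.93 on the log2 scale (SE 0.34, edgeR adjusted p = 3.62e-04), beside a log2 difference of -0.036 for Sgce. The log2 ratio of Peg10 to Sgce, chosen after these values were seen, was -3.11 on average in Ctrl and -4.99 in Confine and is given as a description with no test. Both genes are paternally expressed. Pon2 and Pon3, paraoxonase genes further along, fell with log2 fold changes of -0.60 and -0.57 (edgeR adjusted p = 0.0239 and 0.0340). Each of these 2 calls was lost without Ctrl replicate 1, without Confine replicate 1 or without Confine replicate 3, and that of Pon3 also without Ctrl replicate 3, with edgeR adjusted p up to 0.198 for Pon2 and 0.285 for Pon3. Casd1 (log2 fold change -0.22) and Asb4 (-1.71, at 1 to 21 counts) did not pass. Asb4 rested on single libraries, at -3.88 without Confine replicate 1 (edgeR adjusted p = 0.0468, which passed) and -0.94 without Confine replicate 3 (edgeR adjusted p = 0.523).

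In the Ndn domain the genes stood at very different levels. Peg12, also paternally expressed, averaged 227 ± 26.2 (SD, n = 3) normalized CPM in Ctrl against 158 ± 29.8 (SD, n = 2) in Confine, while its neighbours Ndn and Magel2 had at most 6 and 0 counts in a library. The log2 fold change of Peg12 was -0.52 (edgeR adjusted p = 0.0575), which did not pass. It passed in 7 of the 14 alternatives, among them DESeq2 (-0.54, adjusted p = 0.0328), limma-voom (-0.53, adjusted p = 0.0468), no filter on low counts (-0.53, edgeR adjusted p = 0.0465), library size alone (-0.73, edgeR adjusted p = 0.00688) and without Ctrl replicate 2 (-0.62, edgeR adjusted p = 0.0164). Without Confine replicate 3 it was -0.34 (edgeR adjusted p = 0.436), so the call for Peg12 depended on the setting. Snrpn, which encodes a splicing protein, had a log2 fold change of -0.0087, Ube3a, a ubiquitin ligase gene, -0.24, and Mkrn3, which encodes a ring finger protein, 0.049, and none of these 3 passed by edgeR. Snurf lies within Snrpn on the same strand and was listed at 0, where reads cannot be assigned to either alone. Copg2 (log2 fold change -0.27) next to Mest and Cobl (-0.96) next to Grb10 did not pass either.

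**Figure D3:**
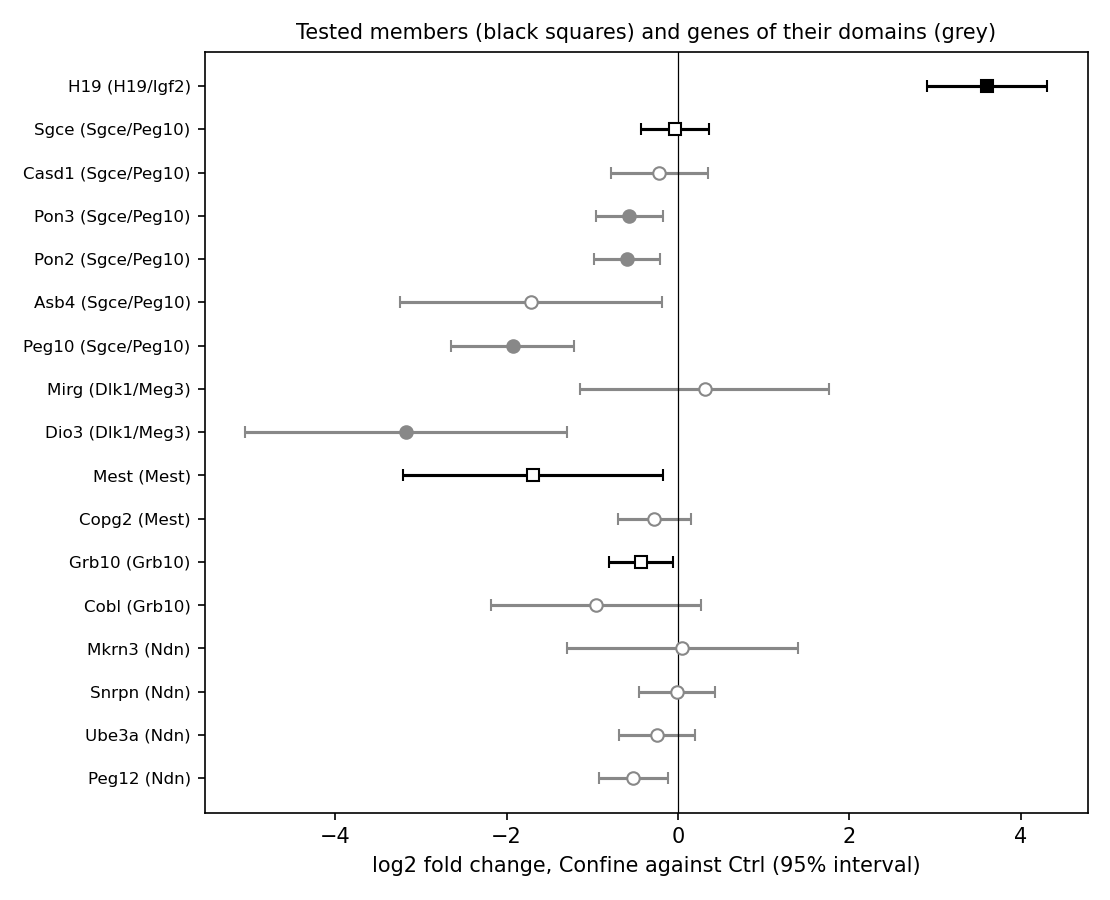
Log2 fold change of Confine against Ctrl with its 95% interval from edgeR, for the 4 tested members (black squares) and the 13 tested genes of their domains (grey circles), ordered by domain. Filled symbols passed at an adjusted p under 0.05. H19 at 3.61 is the only filled symbol above 0, and the filled symbols below 0 are Dio3, Peg10, Pon2 and Pon3.

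Of 38 further genes reported as imprinted in at least some mouse tissues, 27 were tested, 8 rose and 4 fell by edgeR's quasi-likelihood test, with a median log2 fold change of 0.18. Together with the genes of the domains, 16 of 40 tested genes passed, which is 40% against the background of 23% of all tested genes. This number was 8 without Ctrl replicate 1, 10 without Confine replicate 1 and 7 without Confine replicate 3, in fits where 17.8%, 13.5% and 12.4% of all tested genes passed. Htr2a, a serotonin receptor gene, had 3 to 12 counts in Ctrl and 127 and 109 in Confine (log2 fold change 3.81, edgeR adjusted p = 2.80e-06). The Ctrl counts of Htr2a would not have passed the filter on their own, so it was tested through Confine, where it was high. Ampd3, an AMP deaminase gene, rose with a log2 fold change of 2.08 (edgeR adjusted p = 1.46e-07) and Smoc1, which encodes a matrix protein, with 1.31 (edgeR adjusted p = 3.76e-04). Cd81, a tetraspanin gene, rose with 0.76 (edgeR adjusted p = 0.00367). Ascl2, a transcription factor of the placenta, had 0, 0 and 1 counts in Ctrl and 31 and 18 in Confine and passed (edgeR adjusted p = 2.17e-04), at counts too low for a fold. Like Htr2a, Ascl2 got through the filter by its Confine counts, and the 8 genes that rose include both.

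Slc38a4, which encodes an amino acid transporter of the placenta, fell with a log2 fold change of -1.30 (edgeR adjusted p = 0.0318), and Nnat, which encodes neuronatin, rose with 1.02 (edgeR adjusted p = 0.0271). The calls of both were lost when any 1 library except Ctrl replicate 2 was left out, with edgeR adjusted p up to 0.150 for Slc38a4 and 0.149 for Nnat. Airn, the noncoding RNA that silences Igf2r on the paternal copy, rose with 0.85 (edgeR adjusted p = 0.0172), and this call was lost without Ctrl replicate 1, Confine replicate 1 or Confine replicate 3 (edgeR adjusted p up to 0.143). The other 4 genes that passed had smaller changes and were named after their values were seen. Igf2r, which encodes the receptor that removes IGF2, rose with 0.67 (edgeR adjusted p = 0.0161) and lost its call without Ctrl replicate 1 or Confine replicate 3 (edgeR adjusted p up to 0.216). Impact (-0.75), Tssc4 (-0.73) and Mcts2 (-0.61) fell (edgeR adjusted p = 0.0100, 0.00597 and 0.0405). Each lost its call without Confine replicate 3 (edgeR adjusted p = 0.211, 0.104 and 0.169), and Mcts2 also without Ctrl replicate 1, Ctrl replicate 2 or Confine replicate 1 (edgeR adjusted p up to 0.219). Scaled by library size without TMM, Airn, Nnat and Igf2r did not pass (edgeR adjusted p = 0.0701, 0.0765 and 0.0902). Cdkn1c, a growth-restraining CDK inhibitor gene of the network, had 0 counts in all libraries.

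Of 17 factors that write, read or erase DNA methylation or hold imprints, 15 were tested, 4 rose and 2 fell by edgeR, which is 40% against 23% of all tested genes. Dnmt1, the maintenance DNA methyltransferase, fell with a log2 fold change of -1.17 (edgeR adjusted p = 3.25e-04) and Uhrf1, which brings it to replicated DNA, with -1.499 (edgeR adjusted p = 4.00e-05). Dnmt3a, a de novo methyltransferase gene, rose with 0.88, and the demethylase genes Tet1 and Tet2 rose with 1.59 and 1.94 (edgeR adjusted p = 0.00107, 2.22e-05 and 6.58e-07). Dnmt3l, a cofactor of the de novo enzymes, had 0, 1 and 0 counts in Ctrl and 35 and 30 in Confine and passed (edgeR adjusted p = 4.75e-05). Dnmt3l, 1 of the 4 that rose, got through the filter by its Confine counts alone. It shares 67 exon bases with Aire on the opposite strand, which had 0 counts in every Ctrl library. Aire had 1407 counts in Confine replicate 1 and 906 in Confine replicate 3, and whether Aire reads entered the Dnmt3l counts was not tested. The imprint-protecting zinc finger gene Zfp57 had a log2 fold change of -0.013 and its cofactor gene Trim28 -0.15, and neither passed. DNA methylation itself was not measured.

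Around the growth factor pathway that several members act on, 13 of 14 listed IGF axis genes were tested, and 5 rose and 2 fell, against 12.8% and 10.2% of all tested genes. Igfbp4, which encodes an IGF binding protein, rose with a log2 fold change of 2.55 (edgeR adjusted p = 1.90e-07) and Igfbp7 with 1.24 (edgeR adjusted p = 9.97e-05). Igf1 (-1.14) and the adaptor gene Irs1 (-0.88) fell, and the receptor genes Igf1r (0.68) and Insr (0.68) and the mRNA binding protein gene Igf2bp2 (0.53) rose, with edgeR adjusted p between 0.0103 and 0.0407. Each of these 5 calls was lost without Confine replicate 3, with log2 fold changes of -0.95, -0.56, 0.69, 0.49 and 0.61, and 4 of them, all but Igf1, also without another library. Scaled by library size without TMM, Igf1r, Insr and Igf2bp2 did not pass (edgeR adjusted p = 0.0707, 0.0932 and 0.199).

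Besides H19, genes of other listed kinds differed between Ctrl and Confine. All 16 listed cell cycle genes fell by edgeR, against 10.2% of all tested genes. Their summed level was 2578 to 3018 normalized CPM in Ctrl and 902 to 1103 in Confine. The 14 fibroblast markers summed to 9108 to 10049 normalized CPM in Ctrl and to 16382 to 17266 in Confine. Of these markers 7 of the 11 tested rose, against 12.8% of all tested genes. The 8 leukocyte markers summed to 7.61 to 8.50 normalized CPM in Ctrl and 18.5 to 25.9 in Confine, and its genes moved in opposite directions. Cd68 rose with a log2 fold change of 2.67 (edgeR adjusted p = 3.94e-07), Csf1r rose with 1.45 (edgeR adjusted p = 0.0367, a call lost when any 1 library except Ctrl replicate 1 was left out), and Lyz2 fell by 2.64 on the log2 scale (edgeR adjusted p = 3.53e-05), while Adgre1 and Cd3e were at 0 in all libraries and Ptprc at 0 in both Confine libraries. The epithelial markers summed to at most 0.675 normalized CPM in any library, with Epcam and Krt18 at 0 throughout, and the endothelial markers to at most 0.718. The muscle markers summed to 3.63 to 4.34 in Ctrl and 9.05 to 12.8 in Confine, nearly all of it Des, with Myod1 at 0, and the pluripotent and germ cell markers to 1.38 to 3.02 and 2.74 to 3.72, with Ddx4 and Zfp42 at 0. Among the latter Sox2 rose with a log2 fold change of 1.08 (edgeR adjusted p = 0.0424, a call lost when any 1 library except Ctrl replicate 2 was left out), and Nanog had -1.16 and did not pass (edgeR adjusted p = 0.283). The part of these differences in the H19 result was not tested, and in bulk RNA more cells that express a gene and more RNA per cell cannot be told apart.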

How the data were processed

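The authors purified polyadenylated RNA with oligo(dT), built dUTP-marked libraries, which keep the strand, and deposited raw read counts per gene in 6 columns, without normalization. The submitters' processing notes name Trim Galore 0.6.10, HISAT2 2.1.0, SAMtools 1.5, featureCounts and the mm10 build. The annotation and the strand setting of counting were not given in the sources used here, and these could move reads between overlapping genes. All 6 columns were matched to samples, and 0 were left unmatched. The repeated Confine column entered only the comparison of columns and the alternative that counts it. Of 55335 gene identifiers, 55154 matched GENCODE M21 (GRCm38, the same assembly as mm10) without their version, which gave names, positions and union exon lengths.

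The identical Confine columns were counted once, where 3 against 3 libraries had been deposited. Counts were filtered by edgeR's filterByExpr, normalized by TMM and tested by edgeR 4.0.16 (quasi-likelihood, R 4.3.3) without a replicate block. The fit had 3 residual degrees of freedom. Alternatives were DESeq2 1.42.0, voom in limma 3.58.1, other normalizations and filters, the replicate block, glmTreat and leaving out each library. The script was tested on simulated data. The members and lists were chosen with earlier results of these data known. Named were all members, all tested genes of their domains, and at most 8 passing genes of each other list by size of change. The remaining 4 passing genes of the other imprinted list (Igf2r, Impact, Tssc4 and Mcts2) and, among genes that did not pass or had no count, Zfp57, Trim28, Cdkn1c and Nanog were added after their values were seen. Replicate numbers 1 and 3 pair only 2 libraries per group, and the labels give no batch or shared source, so they were not taken as pairs. The sequences come from RefSeq (GRCm38.p6). The motifs were taken from textbook knowledge.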

Additional observations from a re-analysis of the deposited data

How the results depend on the processing

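The rise of H19 kept its direction and its side of the threshold in all 14 alternatives, with log2 fold changes from 2.94 to 4.06 and edgeR, DESeq2 or limma adjusted p up to 1.93e-04. The number of members that passed was 1 in all alternatives except 2. With library size alone it was 2 (H19 and Grb10, the latter with a log2 fold change of -0.64). With the identical columns counted as 2 samples it was 3 (H19, Grb10 at -0.41 and Mest at -1.86). In that alternative 2 members, H19 and Mest, were called differentially expressed. Counting a library 2 times lowers the apparent spread by construction. Plagl1 also passed then (-2.27 without a filter). When single libraries were dropped, log2 differences ran from -0.52 to -0.34 for Grb10, from -2.21 to -1.27 for Mest, from -0.15 to 0.052 for Sgce, from -4.27 to 1.29 for Ndn and from -2.78 to -1.94 for Plagl1, and the number of members that passed stayed at 1. Mirg ran from -0.89 to 0.99, Mkrn3 from -0.32 to 1.10, Snrpn from -0.15 to 0.12, Asb4 from -3.88 to -0.94, Cobl from -1.83 to -0.39 and Copg2 from -0.51 to -0.069. Sgce changed sign without Ctrl replicate 3 (0.052) and without Confine replicate 3 (0.011), Ndn without Ctrl replicate 2 (1.29) and without Confine replicate 3 (0.18), Mirg without Confine replicate 3 (-0.89), Mkrn3 without Ctrl replicate 2 (-0.25), Ctrl replicate 3 (-0.32) or Confine replicate 3 (-0.30), and Snrpn without Ctrl replicate 1 (0.094), Ctrl replicate 3 (0.018) or Confine replicate 1 (0.12). Mkrn3 also changed sign with library size alone (-0.15) and with the identical columns counted as 2 samples (-0.082). The cause was not tested. The fits without a Confine library rest on 1 library in that group, assumed to vary like the others. The number of other imprinted genes that passed, 16, ranged from 7 to 17 when a library was left out.

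With the replicate block, the number of other imprinted genes that passed was 8 with the repeated library as number 2 and 21 as number 1, and 2528 and 4933 of all genes passed, against 3654 without it. The log2 differences of same-numbered libraries had correlations across genes of -0.091 and 0.077, with 2 pairs each, so the labels and data give no firm pairing. With the block, Snrpn had 0.11 (number 2), and Ndn 1.29 and Mkrn3 -0.059 (number 1). H19 passed in both block fits. The alternatives were read for the named genes outside the members after the data had been seen. Depth limits Mest, Plagl1 and Ndn, whose highest library had 14 counts.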
